A study of Rattus norvegicus with 4 samples.

Results

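The glutamate and GABA receptor subunit genes were examined in rat neural stem cells and in the neurons derived from them. The list held 36 genes of the AMPA, NMDA, kainate, delta and metabotropic glutamate receptors and of the GABA-A and GABA-B receptors. Probes were assigned by transcript accession, which gave a probe for 31 of the 36, among 8927 named genes on the array. Grin3a, Grik5, Grm2, Grm3 and Gabra2 had no matched probe and were not analysed here. The cells were neural stem cells (NSCs) cultured from the hippocampus (HPC) or the olfactory bulb (OB) of Fisher 344 rats, described as adult in the title, and neurons derived from each stem cell culture. No treatment, genotype or differentiation protocol is named in the labels. RNA of 3 independent experiments was pooled for each of the 4 groups and hybridised to 1 Agilent Cy3 array, so no difference below has a replicate check and no single comparison could be tested.

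Glutamate acts on ion channels (AMPA, NMDA and kainate receptors), which depolarise the cell, and on metabotropic receptors, which signal through G proteins. GABA acts on GABA-A receptors, which are chloride channels, and on GABA-B receptors, which couple to G proteins. In the adult hippocampus and olfactory bulb, new neurons express GABA receptors early, before most excitatory input arrives, and neural progenitors can carry receptors for both transmitters.

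Levels are given as the log2 processed signal minus the 75th percentile of the same array, so that 0 is the 75th percentile. A level compares 1 probe across arrays and not one gene with another. A probe counts as detected when the scanner software marked it well above background. For a comparison in which 1 side was not detected, the difference is a lower bound on its size, written "at least" where positive. A negative bound means that value or lower. Bounds were taken against the lowest signal that counted as detected on the undetected side's array, or the gene's own signal there if higher. Differences of 1 log2 unit (2-fold) or more were called.

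Many of the receptor genes were not detected on every array. Of the 31 genes, 11 were detected on all 4 arrays, against 61.6% of all named genes, and 6 were detected on none, against 20.3%. A further 10 were detected on only 1 array, against 5.46% of all genes. By array, 13 were detected in HPC stem cells, 14 in OB stem cells, 15 in HPC neurons and 23 in OB neurons. The corresponding shares of all named genes were 64.9%, 66.0%, 72.3% and 77.3%. The OB neuron array also had the lowest detection limit, at a level of -6.41, against -5.41, -5.97 and -5.69 on the HPC stem cell, OB stem cell and HPC neuron arrays. With the highest of these limits applied to every array, 16 of the 31 were detected in OB neurons and the other counts stayed at 13, 14 and 15. At that limit the shares of all named genes were 73.1% in OB neurons and 64.9%, 64.6% and 72.1% on the other arrays in the same order.

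**Figure D1:**
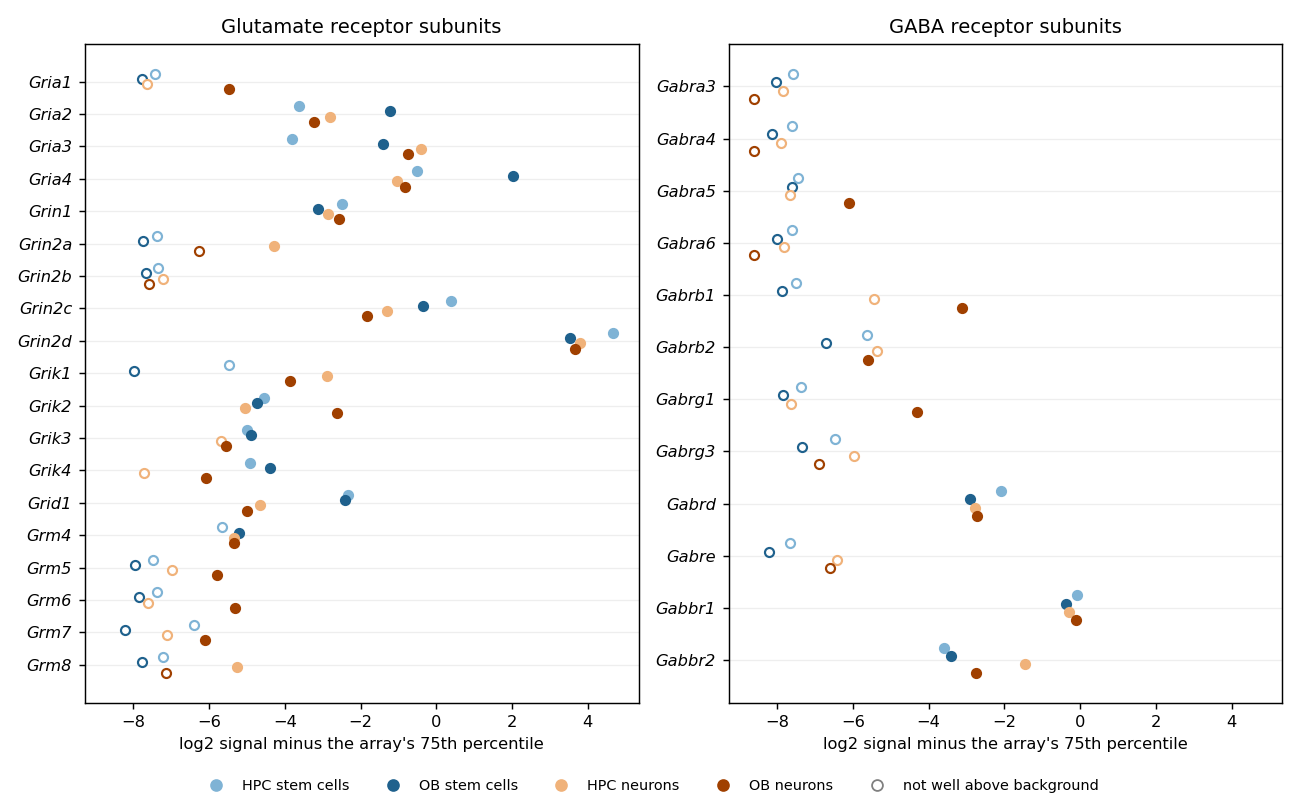
Level of each of the 31 receptor genes on the 4 arrays (log2 signal minus the array's 75th percentile). Filled points were well above background and open points were not; 6 genes are open on every array, and OB neurons have the most filled points (23). Levels of different probes are not comparable with each other.

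The neuronal markers did not share a direction between the neuron and stem cell arrays, although their summed signal was lower on the neuron arrays. The summed signal of 13 neuronal markers, in units of the array's 75th percentile, was 90.6 in HPC and 69.8 in OB stem cells, and 23.1 and 14.8 in the derived neurons. Of these markers 2 were higher and 6 lower in HPC neurons than stem cells, against 21.9% and 26.8% of all genes. In OB neurons 3 were higher and 6 lower, against 26.9% and 20.0%. The microtubule protein gene Mapt differed by -3.62 and -6.44 and the growth cone gene Gap43 by -4.31 and -3.12, while the synaptic gene Snap25 was higher by 3.97 and 3.08. The summed signal gives most weight to bright probes, among them those of Mapt and Gap43. Their levels were 5.33 and 4.67 in HPC stem cells and 4.91 and 4.68 in OB stem cells. The sum over 8 pericyte, fibroblast and smooth muscle markers was 0.117 and 0.133 in stem cells and 381 and 517 in neurons, and 10 astrocyte markers summed to 41.9 and 31.9 in stem cells and 142 and 145 in neurons. Of the 8 stromal markers 1 was detected in each stem cell culture and 8 in each neuron culture, of the 10 astrocyte markers 4, 5, 10 and 10 in HPC stem cells, OB stem cells, HPC neurons and OB neurons, and of the 13 neuronal markers 12, 11, 11 and 12. In pooled bulk RNA, fewer cells of a type and less RNA per cell cannot be told apart. The neuron arrays were on another slide than the stem cell arrays, so slide and cell state cannot be told apart either. What the marker shifts contribute to the receptor differences between neurons and stem cells was not tested.

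**Figure D2:**
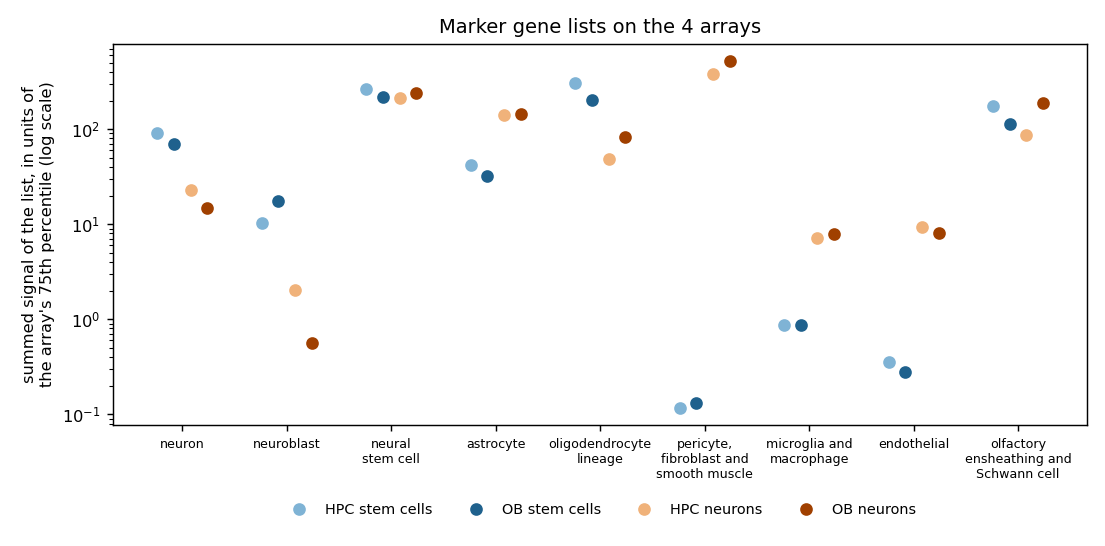
Summed signal of each marker list on the 4 arrays, in units of the array's 75th percentile (log axis). Neuronal and neuroblast sums are lower and astrocyte, stromal, microglial and endothelial sums higher on both neuron arrays than on both stem cell arrays.

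Of the AMPA receptor genes, 3 of 4 were higher in OB than in HPC stem cells by 2-fold or more. These receptors carry fast excitatory transmission, and the subunit encoded by Gria2 limits their calcium entry. Gria4 had levels of -0.50 in HPC stem cells, 2.02 in OB stem cells, -1.03 in HPC neurons and -0.84 in OB neurons. Gria2 had levels of -3.64, -1.22, -2.80 and -3.24 in the same order, and Gria3 had levels of -3.81, -1.41, -0.40 and -0.73. For Gria2 and Gria4, OB stem cells were the highest of the 4 samples, while Gria3 was highest in HPC neurons. In OB against HPC stem cells, which shared a slide, Gria4 was higher by 2.52 (5.73-fold), Gria2 by 2.42 (5.34-fold) and Gria3 by 2.40 (5.28-fold). They ranked 14, 17 and 19 from the top of 6026 genes compared, and 1, 68 and 101 after normexp. All 3 stayed at 2-fold or more under every one of the 8 other ways of processing tried. Values ran from 1.13 for Gria3 and 1.31 for Gria2, both with normexp, to 3.37 for Gria4 with spike-in scaling. The changes of filter could not move these values, and averaging over probes could not move Gria3, which had 1 probe.

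The probe of Gria2 was printed 10 times, and its spots had an SD of 0.179 log2 units in HPC and 0.0612 in OB stem cells (n = 10 spots each). That is the error of spots, not of cultures, and the difference of 2.42 exceeds it. A second Gria2 probe gave 2.26 and a second Gria4 probe 2.28 for the same comparison. Gria1, the main partner of Gria2 in hippocampal neurons, was not detected in either stem cell culture or in HPC neurons, at levels of -7.42, -7.78 and -7.65, and was detected in OB neurons at -5.48. That OB neuron level lies below the highest limit of the 4 arrays.

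**Figure D3:**
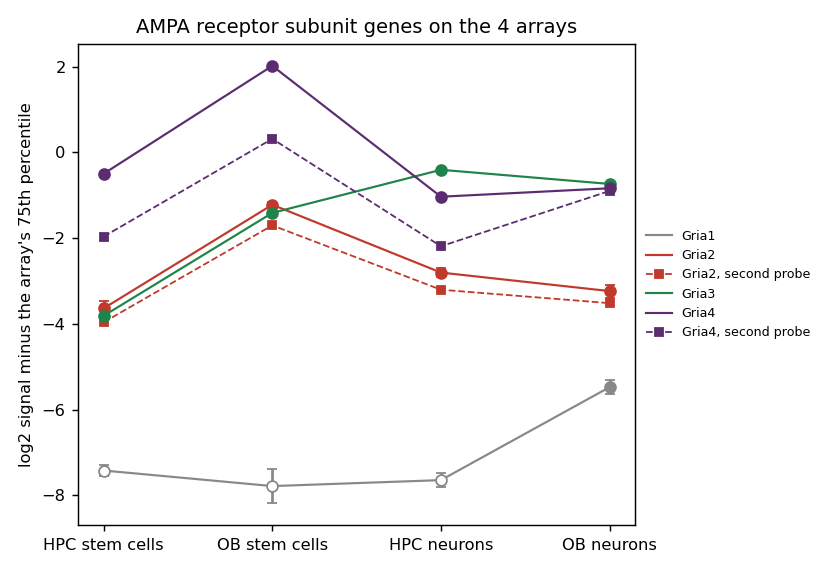
Levels of the 4 AMPA receptor genes on the 4 arrays, with the second probe of Gria2 and Gria4 dashed. Filled circles were well above background, bars are the SD over the spots of 1 array for probes printed 10 times (Gria1 and Gria2), and Gria2, Gria3 and Gria4 are all higher in OB than in HPC stem cells.

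Some markers of young neurons were also higher in OB stem cells. Of 7 neuroblast markers compared, 3 were higher in OB stem cells by 2-fold or more and 0 lower, against 4.17% and 6.97% of all genes. These 3 were the microtubule protein gene Dcx by 2.28 and the RNA-binding protein genes Elavl4 by 1.71 and Elavl3 by 1.19. Of 12 neuronal markers compared, 3 were higher and 2 lower, against the same shares. The summed neuroblast signal was 10.3 in HPC and 17.4 in OB stem cells. The oligodendrocyte lineage, whose progenitors also carry AMPA receptors, had a summed marker signal of 309 in HPC and 205 in OB stem cells, with 0 of 7 markers called in either direction. The part of either cell type in the AMPA receptor difference was not tested.

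Between neurons and stem cells the AMPA genes did not share a direction. In OB cells Gria4 and Gria2 were lower in neurons, with differences of -2.86 and -2.01, while Gria3 differed by 0.68. In HPC cells Gria3 was higher in neurons by 3.41 (10.6-fold), while Gria2 differed by 0.83 and Gria4 by -0.54. The second Gria4 probe gave a difference of -1.22 in OB cells and lay 1.29 higher in OB than HPC neurons, where the brighter probe differed by 0.20, so the 2 probes disagree on the neurons. Between the neurons the brightest probes of these genes lay close together, with differences of OB minus HPC of -0.43 for Gria2, -0.33 for Gria3 and 0.20 for Gria4.

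The upstream sequence of Gria4 is shown because it is the AMPA gene of the OB stem cell difference for which a RefSeq promoter window was at hand, and that of Grik1 because this kainate gene was higher on both neuron arrays. Each run is the 250 bases before the annotated start, 5′ to 3′, on the rat assembly GRCr8, minus strand: chr8:10319882-10320131 for Gria4 and chr11:41056504-41056753 for Grik1. Capitals mark CAGCTG, an E-box read the same on both strands, to which some basic helix-loop-helix factors bind.
Gria4: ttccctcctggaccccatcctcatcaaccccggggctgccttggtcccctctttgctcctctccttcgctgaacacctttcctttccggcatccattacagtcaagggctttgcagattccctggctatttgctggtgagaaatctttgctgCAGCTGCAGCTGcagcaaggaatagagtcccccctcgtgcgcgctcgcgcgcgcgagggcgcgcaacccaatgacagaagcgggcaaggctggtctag
Grik1: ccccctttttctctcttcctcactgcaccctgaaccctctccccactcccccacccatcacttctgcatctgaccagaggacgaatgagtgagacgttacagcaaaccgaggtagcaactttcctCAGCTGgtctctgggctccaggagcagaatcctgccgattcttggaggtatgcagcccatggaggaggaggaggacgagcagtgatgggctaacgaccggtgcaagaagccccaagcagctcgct
The Gria4 window held 2 adjacent copies and the Grik1 window 1. Of 33469 RefSeq windows of this length, 12.0% held the letters, as did 4 of the 24 windows found for receptor genes, those of Gria4, Grik1, Grm6 and Gabrg3. A match of letters is a description and not a binding site.

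NMDA receptors need coincident glutamate and depolarisation and admit calcium. The obligatory subunit gene Grin1 was detected everywhere, with levels of -2.50 and -3.13 in HPC and OB stem cells and -2.86 and -2.57 in HPC and OB neurons, and no comparison reached 2-fold. Its spots, printed 10 times, had an SD between 0.0942 and 0.138 log2 units per array. Grin2d, a subunit gene of immature neurons and interneurons, had levels of 4.68, 3.54, 3.80 and 3.67 and was lower in OB than HPC stem cells, with a difference of -1.15. This call was lost under 3 of 8 other ways of processing, with values down to -0.30.

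The other NMDA genes differed in their patterns. Grin2c, best known from cerebellar granule cells, had levels of 0.39 and -0.34 in HPC and OB stem cells and of -1.30 and -1.82 in the neurons. It was lower on the neuron arrays, with differences of -1.69 and -1.47, against spot SDs of 0.0758 to 0.126. Grin2a, a subunit gene of mature synapses, was detected in HPC neurons alone at -4.29, where it was higher than in HPC stem cells by at least 1.12. OB minus HPC neurons gave a bound of -1.98. The first of these calls was lost with median scaling (0.66), quantile normalization (0.57) and normexp (no fold), and the second with normexp (-0.26). Its levels on the other arrays, -7.37, -7.75 and -6.27, were not marked as detected. Grin2b, which dominates in young forebrain neurons, was not detected on any array, with levels between -7.68 and -7.21.

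Kainate receptors act both before and after the synapse. Grik1 was not detected in HPC or OB stem cells, at -5.48 and -7.98, and reached -2.88 and -3.87 in HPC and OB neurons, which was higher by at least 2.53 and 2.09. With normexp both differences fell under 2-fold, to 0.70 and 0.89. Grik4, which encodes a subunit that works only with Grik1, Grik2 or Grik3 partners, had levels of -4.92 and -4.38 in stem cells and -7.72 and -6.07 in neurons. The difference from stem cells was -1.69 in OB neurons. In HPC neurons, where Grik4 was not detected, it was bounded at -0.77 or lower. With normexp the OB difference was -0.35. Grik2 had levels of -4.56, -4.73 and -5.06 in HPC stem cells, OB stem cells and HPC neurons and stood apart in OB neurons at -2.63, higher by 2.10 than in OB stem cells and by 2.43 (5.39-fold) than in HPC neurons. Grik3 had levels of -4.99, -4.90, -5.70 and -5.54, with no difference of 2-fold.

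Grid1 encodes a delta subunit that binds cerebellins at synapses. Its levels were -2.32 and -2.40 in HPC and OB stem cells and -4.65 and -5.00 in the neurons, with differences of -2.33 and -2.60. Both neuron arrays lay below both stem cell arrays, and the differences between sources were -0.08 in stem cells and -0.35 in neurons.

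No metabotropic glutamate receptor gene was detected on all 4 arrays. Grm4, an inhibitory presynaptic receptor gene, had levels of -5.67, -5.21, -5.35 and -5.33 and was detected on all arrays but that of HPC stem cells. Grm5, which couples to phospholipase C, was detected in OB neurons alone at -5.80, against levels from -7.97 to -6.98 on the other arrays. Grm6, known from retinal bipolar cells, was likewise detected there alone at -5.31, and Grm7, another presynaptic receptor gene, at -6.10. Grm8, of the same inhibitory group, was detected only in HPC neurons at -5.26, and OB minus HPC neurons gave a bound of -1.15, which fell under 2-fold with normexp (-0.24). Of the 3 genes detected in OB neurons alone, only Grm6 exceeded the highest of the 4 detection limits.

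Most GABA-A receptor genes were not detected in stem cells. Of 10 measured, Gabrd alone was detected in HPC stem cells, OB stem cells and HPC neurons, while 5 were detected in OB neurons. Gabrd, a subunit gene of receptors outside the synapse, had levels of -2.09, -2.92, -2.77 and -2.73, with no difference of 2-fold. Gabrb1, which encodes a beta subunit that every common GABA-A receptor needs in some form, had levels of -7.52, -7.86, -5.46 and -3.11 in HPC stem cells, OB stem cells, HPC neurons and OB neurons. In OB neurons it was higher than in OB stem cells by at least 2.85 (7.22-fold) and than in HPC neurons by at least 2.35, the latter falling under 2-fold with normexp (0.90).

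Gabrg1, a gamma subunit gene of immature neurons and glia, had levels of -7.37, -7.86 and -7.64 and was detected only on the OB neuron array, at -4.31, higher by at least 1.66 than in OB stem cells and by at least 1.38 than in HPC neurons. The first call was lost with quantile normalization (0.91) and normexp (0.64), and the second with normexp (0.59). Gabrb2 and Gabra5 were also detected in OB neurons alone, at -5.60 and -6.10, both under the highest limit of the 4 arrays. The levels of Gabrb2 on the other arrays were -5.62, -6.71 and -5.37 and those of Gabra5 -7.46, -7.61 and -7.66. Gabra3, Gabra4, Gabra6, Gabrg3 and Gabre were not detected on any array, with levels between -8.62 and -5.99.

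Of the 8 receptor genes detected in OB neurons alone, 3 exceeded the highest of the 4 limits: Gabrb1, Gabrg1 and Grm6. With each array at its own limit, as for the 8, genes detected only on this array made up 4.03% of all named genes. That share was not counted at the highest limit, so the 3 have no share beside them. The summed markers of olfactory ensheathing and Schwann cells were 86.6 in HPC and 190 in OB neurons, with 8 and 9 of 9 markers detected. Those of the oligodendrocyte lineage were 48.7 and 83.2. In HPC and OB stem cells the same sums were 175 and 114, and 309 and 205. The bright gene Sox10 is on both lists, with levels of 7.22 and 6.47 in HPC and OB stem cells and 4.30 and 4.23 in HPC and OB neurons. Of the 9 ensheathing and Schwann cell markers 5 were higher in OB than HPC neurons, Ngfr by 4.95, and 0 lower, against 7.66% and 8.0% of all genes. Of the 10 astrocyte markers 3 were higher and 2 lower, against the same shares, with sums of 142 and 145. The part of these cells in the GABA-A and Grik2 levels was not tested.

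The GABA-B receptor works as a pair of 2 different subunits. Gabbr1 differed by less than 2-fold in every comparison, with levels of -0.07, -0.37, -0.29 and -0.10, and its spots had SDs between 0.0779 and 0.134. Gabbr2, the partner that carries the receptor to the surface and couples it to G proteins, had levels of -3.59 and -3.42 in HPC and OB stem cells, -1.46 in HPC neurons and -2.75 in OB neurons. It was higher by 2.13 (4.38-fold) in HPC neurons than in HPC stem cells, differed by 0.66 between OB neurons and OB stem cells, and was lower in OB than HPC neurons, with a difference of -1.30 (-0.86 with normexp).

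Counts over the list are given beside the share of all genes called in the same direction. In HPC cells 4 of 17 receptor genes compared were higher in neurons, against 21.9% of 6656 genes, and 2 lower, against 26.8% (48.7% in either direction). In OB cells 4 of 23 were higher, against 26.9% of 7022 genes, and 5 lower, against 20.0% (46.8% in either direction). In OB against HPC stem cells 3 of 14 were higher, against 4.17% of 6026 genes, and 1 lower, against 6.97% (11.1% in either direction). In OB against HPC neurons 3 of 25 were higher, against 7.66% of 6999 genes, and 3 lower, against 8.0% (15.7% in either direction). In this last comparison 13 of the 25 were detected on both arrays, 7 were bounds, and 5 gave no bound and were set to 0. Values set to 0 cannot be called and enter the median. None of these shares was tested. Medians over the receptor genes were -0.37, 0.19, 0.00 and 0.00 in the 4 comparisons, beside -0.32, 0.08, -0.43 and -0.01 over all genes.

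**Figure D4:**
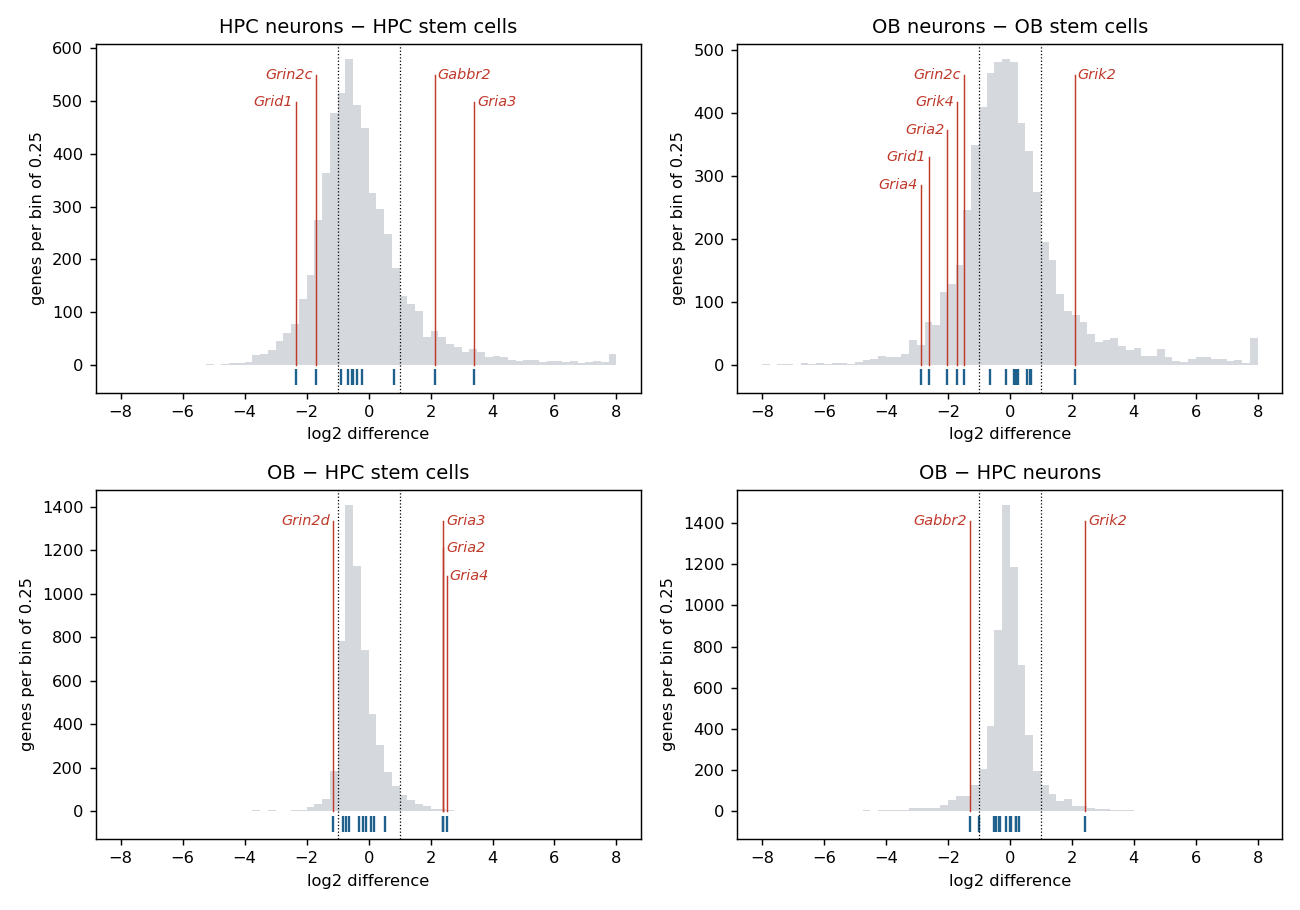
Distribution of log2 differences over all genes detected on both arrays of a comparison (grey), with receptor genes as blue ticks and those past 2-fold (dotted lines) named in red. Gria2, Gria3 and Gria4 lie at the upper edge for OB against HPC stem cells; bounds are not drawn, and differences beyond 8 are gathered in the outermost bins.

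The scaling of the arrays moved some of these counts. For HPC neurons against stem cells, median scaling and quantile normalization each gave 3 receptor genes higher and 6 lower, while spike-in scaling gave 5 higher and 2 lower. The median of all genes in that comparison moved from -0.32 to -0.78 with median scaling and to 0.12 with spike-in scaling. In OB cells it moved from 0.08 to -0.41 and -0.50, and the split was 4 higher and 6 lower with either, against 3 and 6 with quantile normalization. In OB against HPC stem cells, spike-in scaling gave 6 higher and 0 lower, and the median of all genes moved from -0.43 to 0.42. No called difference of a receptor gene changed sign under any scaling tried. For bounds this was fixed in advance, because a bound that would have changed sign was set to 0.

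The size of the change between stem cells and neurons differed between the sources for several genes. Among 5495 genes detected on all 4 arrays, the change in OB cells exceeded that in HPC cells by 4-fold or more for 2.55% and fell below it by that much for 1.58%. Of the 11 receptor genes detected on all arrays, 1 exceeded it, Grik2 at 2.60, and 3 fell below it, Gria2 at -2.85, Gria3 at -2.73 and Gria4 at -2.32. Each of these values follows from the differences given above and is not a further measurement. The sign of these 4 values was the same under the 6 other scalings, corrections and probe rules tried. Their ranges were 1.53 to 2.60 for Grik2, -3.92 to -1.55 for Gria2, -3.80 to -1.40 for Gria3 and -3.39 to -1.65 for Gria4. The second Gria4 probe, taken alone, changed by -1.22 in OB and -0.23 in HPC cells, which falls short of 4-fold.

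The test used was an additive limma fit over all 4 arrays with terms for state and source, which treats the sources as repeats of the state difference. It has 1 residual degree of freedom among samples, uses the measured signal of undetected probes, and cannot separate state from slide. With Benjamini-Hochberg adjustment over 7111 genes, 3 of 25 receptor genes were higher in neurons, against 19.4% of all genes, and 3 lower, against 12.2%. The higher genes in this limma fit were Grik1, Gabrb1 and Grin2a. None of these was detected in stem cells, so they entered the fit only through neuron arrays. Their fitted differences and p-values are therefore not given. With undetected signals raised to the detection limit, Gabrb1 and Grin2a were no longer called. The lower genes were Grid1 (log2 difference -2.46, SE 0.43, adjusted p 0.00612), Grik4 (adjusted p 0.0135; not detected in HPC neurons) and Grin2c (log2 difference -1.58, SE 0.43, adjusted p 0.032).

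Of these, Grid1 passed in all 10 alternatives, with adjusted p from 2.9e-06 to 0.0312. Grin2c passed in 8 of 10 (0.00161 to 0.0677) and Grik4 in 8 of 9 (0.00595 to 0.323). Counts for Grik1, Gabrb1 and Grin2a are not given, because the neuron arrays alone brought these genes into the fit. Gria3 (adjusted p 0.0639) and Gria4 (adjusted p 0.0815) did not pass and did so in 5 of 10 alternatives each. For source the limma fit called 0 receptor genes (smallest adjusted p 0.845) and 0.0% of all genes, while 2 receptor genes and 399 of 7111 genes had an unadjusted p under 0.05. A difference between sources that holds in one state only, such as that of the AMPA genes, enters this fit as residual spread.

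Other genes of glutamate and GABA signalling were counted from lists chosen alongside the receptors. Of the auxiliary and anchoring proteins of glutamate receptors, 6 of 28 were higher and 6 lower in HPC neurons than stem cells, against 21.9% and 26.8% of all genes. In OB neurons 9 of 29 were higher and 7 lower, against 26.9% and 20.0%. Nptx2, which clusters AMPA receptors, was higher by at least 4.06 and 0.94 in HPC and OB neurons. Camk2b, a kinase subunit gene of excitatory synapses, was lower, with differences of -3.45 and -2.81, while the scaffold gene Dlg2 was higher by at least 0.90 and 3.46. In OB against HPC stem cells 3 of 24 were higher and 0 lower, against 4.17% and 6.97%.

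Genes that anchor and traffic GABA receptors were counted likewise. In HPC cells 2 of 12 were higher and 4 lower, against 21.9% and 26.8% of all genes, and in OB cells 0 and 4, against 26.9% and 20.0%. Hap1, which returns GABA-A receptors to the surface, was lower, with differences of -2.06 and -4.70, as was Lhfpl4, which places them at inhibitory synapses, with -2.20 and -1.50. The receptor-binding gene Plcl1 was higher by at least 2.75 in HPC cells and differed by 0.63 in OB cells, and the chaperone gene Ubqln1 was lower, with differences of -1.67 and -1.10.

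Genes of transmitter uptake were among those counted. Of the genes for glutamate and GABA synthesis, transport and breakdown, 6 of 16 were higher and 5 lower in HPC neurons, against 21.9% and 26.8% of all genes. In OB neurons 7 of 18 were higher and 4 lower, against 26.9% and 20.0%. The GABA transporter gene Slc6a13, known from meningeal cells and liver, was higher by at least 4.87 and 7.21. The astrocyte glutamate transporter gene Slc1a2 was higher by at least 2.94 and 4.91, whereas the neuronal glutamate transporter gene Slc1a1 was lower, with differences of -2.87 and -4.36.

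Of 11 further subunits of the same receptor families, 7 were detected on at least 1 array. In OB neurons against OB stem cells 4 of 7 were higher and 1 lower, against 26.9% and 20.0% of all genes, and in HPC cells 1 of 6 was higher and 0 lower, against 21.9% and 26.8%. The retinal subunit gene Gabrr2 was higher in OB neurons by at least 3.59.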

How the data were processed

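Each of the 4 groups was measured on 1 one-colour array of pooled RNA. The deposited values are processed signal intensities, background-subtracted by Agilent Feature Extraction 10.5.1.1 per the submitters' processing notes and the file headers; the deposited value table was identical to them. Of 41012 non-control probes, 254 marked as outliers were left out. Probe accessions were matched to RefSeq symbols (GRCr8 table, names only): 10783 probes had 1 symbol, 0 several and 29975 none. The brightest probe stood for a gene. Intensities were put on a log2 scale, computed here, and centred on each array's 75th percentile; 0 spots were saturated. All 4 differences between arrays were computed, and an additive model was fitted with limma 3.58.1 (R 4.3.3) and tested on simulated data first. Its p-values rest on 1 residual degree of freedom, the departure of these 4 pools from additive effects, moderated by limma over all genes. They do not measure a spread between cultures. Receptor genes detected on at least 1 array were named with their values; of the other lists, up to 4 genes with the largest differences were named, except some that are not reported here. The receptor genes and the lists were chosen with earlier results of these data known. The number of arrays limits the precision. Scalings, background correction, filters and probe rules were varied (closing section).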

Additional observations from a re-analysis of the deposited data

Results flagged for a closer look

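Some receptor genes differed in opposite directions in the 2 sources or in the 2 states, with at least 1 of the differences reaching 2-fold. The rule set at the outset asked for 2-fold on both sides, which no receptor gene met, and the wider rule was chosen after the values were seen. Between neurons and stem cells, Gria2 differed by 0.83 in HPC and -2.01 in OB cells. For Grik2 the same differences were -0.50 in HPC and 2.10 in OB cells. Between OB and HPC cultures, Gria2 differed by 2.42 in stem cells and -0.43 in neurons, and Gria3 by 2.40 and -0.33. Grik2 differed by -0.17 in stem cells and 2.43 in neurons, and Gabbr2 by 0.17 and -1.30. With 1 array per group, none of these differences between groups was tested.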

How the results depend on the processing

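Of 25 single differences of 2-fold or more, 14 kept that size in each alternative that gave a value, 11 lost it in at least 1 and 0 reversed. Bounds were set to 0 where their sign would have changed, so they could reverse only with no filter on dim probes. Some alternatives could not move a value, such as a change of filter for a gene detected on all 4 arrays. Counts of receptor genes called moved by over 1.5 times as follows. With no filter on dim probes, 10 were called in HPC and 17 in OB neurons against stem cells, 7 in OB against HPC stem cells and 12 in OB against HPC neurons. With only genes detected on all 4 arrays, 5 were called in OB neurons against stem cells and 2 in OB against HPC neurons. In the latter comparison 1 was called after normexp and 3 at a threshold of 1.5 log2 units. The limma state term called 2247 genes, 1444 after quantile normalization. The limma source term called 0 receptor genes in each setting and 0 genes in all, but 50 with spike-in scaling, 69 after normexp, 82 among genes detected on all arrays, 163 with an eBayes trend and 17 with floored values. The scanner's weaker detection mark gave 19, 18, 22 and 28 receptor genes on the HPC stem cell, OB stem cell, HPC neuron and OB neuron arrays. Normexp used median spot signals. The floors used for detection and the floored fits were chosen after seeing the data. The labels give no replicate numbers to pair by; the additive fit compares the states within each source. A receptor gene not detected may still be expressed below the limit of its array.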

Other observations

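Chloride transporters set whether GABA depolarises or inhibits a cell. Slc12a2, which imports chloride, was higher in neurons than stem cells by 2.44 in HPC and 1.80 in OB cells, and Slc12a5, which exports it, by 1.56 and 1.88. Slc12a4, a transporter of cell volume control, differed by 0.34 and 0.82. Of 4 glycine receptor subunit genes, 2 were detected on any array. Glrb, the beta subunit that anchors glycine receptors, was higher in OB than HPC stem cells by 1.44, differed between OB neurons and OB stem cells by -3.02, and between OB and HPC neurons by -1.56.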
